A study of Homo sapiens with 12 samples.

Results

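The comparison of PNA-10b+21 with PNA-21 asks what sgPNA-10b changed in cells that already received sgPNA-21. It uses 6 of the 12 libraries of the series, chosen by their labels. U87 is an established human glioblastoma line, and all cells were cultured alike and sampled for mRNA sequencing after 72 h. PNA-10b+21 libraries (3) came from cells labelled as a knockdown of both miR-10b and miR-21, given 150 nM sgPNA-10b and 150 nM sgPNA-21 in the nanoparticles called BNP. PNA-21 libraries (3) came from cells labelled as a knockdown of miR-21, given 150 nM sgPNA-21 in BNP. Both arms thus carried nanoparticles, and the PNA-10b+21 arm also carried a second dose of peptide nucleic acid, so that the sequence of sgPNA-10b and the added amount of PNA cannot be told apart. Beside it stands the same addition without sgPNA-21: PNA-10b libraries (3), labelled as a knockdown of miR-10b and given 150 nM sgPNA-10b in BNP, against control libraries (3) of cells labelled WT and given neither. In that second comparison nanoparticles and sgPNA-10b cannot be told apart. No label tells if replicates are separate cultures, so p-values measure only the spread between these libraries.

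A microRNA guides a silencing complex to messenger RNAs whose 3′ untranslated region (UTR) pairs with its seed, the bases near its 5′ end, and so lowers their amount or translation. Peptide nucleic acids are DNA-like oligomers whose bases hang on an amide chain, and anti-seed ones are designed to cover the seed and block that contact. Both miR-10b and miR-21 are known as growth-promoting microRNAs of glioblastoma, and targets of a blocked microRNA are known to rise. Mature microRNAs were not measured here, so how far either microRNA was blocked is not known from these libraries.

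The sequences below show what each seed pairs with, since the search for target sites rests on them. RefSeq (GRCh38.p14) gave the mature miR-10a-5p, a member of the miR-10 family with the family's seed, and miR-21-5p. Seed bases 2 to 8 are in capitals, 5′ to 3′.
hsa-miR-10a-5p: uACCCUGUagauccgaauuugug
hsa-miR-21-5p: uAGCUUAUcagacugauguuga
Sites were searched on the transcript strand as ACAGGGT for the miR-10 family and ATAAGCT for miR-21, 7 bases each (7mer-m8), and a following A makes an 8mer. Windows from the annotated 3′ UTRs of 3 reported miR-10b targets and 2 reported miR-21 targets (GENCODE 29, hg38) show such sites in capitals. BDNF encodes a neurotrophin, TIAM1 an activator of the small GTPase RAC1, SRSF1 a splicing factor, PDCD4 an inhibitor of translation and SPRY2 a feedback inhibitor of receptor tyrosine kinase signalling.
BDNF, chr11:27657739-27657766, minus strand: tatatacataACAGGGTAaattattcag
TIAM1, chr21:31119188-31119215, minus strand: tgccaacgaaACAGGGTAaacatgctca
SRSF1, chr17:58004585-58004611, minus strand: acatgtgggtACAGGGTgtttttaaat
PDCD4, chr10:110898320-110898347, plus strand: gaatattctaATAAGCTAccttttgtaa
SPRY2, chr13:80336505-80336532, minus strand: catgtattgcATAAGCTAaagcaacaca

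Total counts ran from 14102709 to 17098686 in PNA-10b+21 and from 14634738 to 18305820 in PNA-21 libraries. Of the glioblastoma line markers, VIM averaged 1780 CPM (counts per 1e6 counts in the library) and CD44 1400 CPM over the 12 libraries, whereas GFAP averaged 2.71 CPM and SOX2, S100B and PROM1 were each under 0.1 CPM. The 8 myeloid and lymphoid markers summed to 21.1 to 23.1 CPM in PNA-10b+21 and 18.8 to 22.1 CPM in PNA-21, nearly all of it from CSF1R and TMEM119, while PTPRC, which all white blood cells carry, averaged 0.404 CPM. The deposited counts hold no gene at 0 in all libraries, so a marker without reads could not appear. They hold 8 of 10 listed myeloid and lymphoid markers, 7 of 8 neuron markers and 5 of 6 oligodendrocyte markers. In such bulk samples fewer cells of a type and less RNA per cell cannot be told apart. Neuron markers summed to 84.0 to 95.7 CPM in PNA-10b+21 and 89.5 to 102 CPM in PNA-21, endothelial markers to 10.9 to 13.2 and 10.4 to 11.9 CPM, and oligodendrocyte markers, mostly CNP, to 90.2 to 91.9 and 83.8 to 93.6 CPM in the same order of groups.

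Adding sgPNA-10b to sgPNA-21 left no gene past the threshold in the fit of all 12 libraries. Of 15715 genes tested, PNA-10b+21 had 0 (0%) above and 0 (0%) below PNA-21 by edgeR's quasi-likelihood test with Benjamini-Hochberg adjustment (threshold 0.05), and the smallest adjusted p was 0.266. DESeq2, limma-voom and edgeR's likelihood ratio test also called 0 genes, with smallest adjusted p of 0.0554, 0.28 and 0.0651. DESeq2 gave an adjusted p for only 6879 of the 15715 genes. At an unadjusted p under 0.05 there were 427 higher (2.72%) and 927 lower genes (5.90%), or 8.62% in all. The 6 libraries did not overlap for 972 higher genes (6.19%) and 1283 lower genes (8.16%). Without PNA-21 replicate 2 the unadjusted counts were 300 higher and 536 lower. With no filter on low counts there were 32 higher and 300 lower genes at adjusted p under 0.05. Of these 332, only 20 were genes that the filter removed. Fitting only these 6 libraries gave 1 higher and 47 lower genes at adjusted p under 0.05, and 0 of each once transcript GC content and length were fitted too.

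The sgPNA-10b addition with no sgPNA-21 present called 432 genes higher (2.75%) and 587 lower (3.74%), against control, or 6.48% in all, from the same fit, with the same number of libraries. The difference between the 2 changes, tested as an interaction, passed for 233 genes in the higher (1.48%) and 258 in the lower direction (1.64%), or 3.12% in all. A call in one comparison and none in the other is read below only where that interaction passed. Both sets of counts moved with single libraries. Without PNA-10b replicate 2, 98 genes were higher and 208 lower against control, and the interaction passed for 44 and 48.

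By median, the libraries of the 2 arms lay about as far from each other as replicates did. Over 12597 genes with a mean of at least 1 log2 CPM, the root mean square difference between a PNA-10b+21 and a PNA-21 library ran from 0.186 to 0.241 log2, with a median of 0.207 over 9 pairs. It ran from 0.192 to 0.214 within PNA-10b+21 and from 0.199 to 0.210 within PNA-21. Between PNA-10b and control libraries the median was 0.255, against 0.218 within PNA-10b and 0.216 within control.

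**Figure D1:**
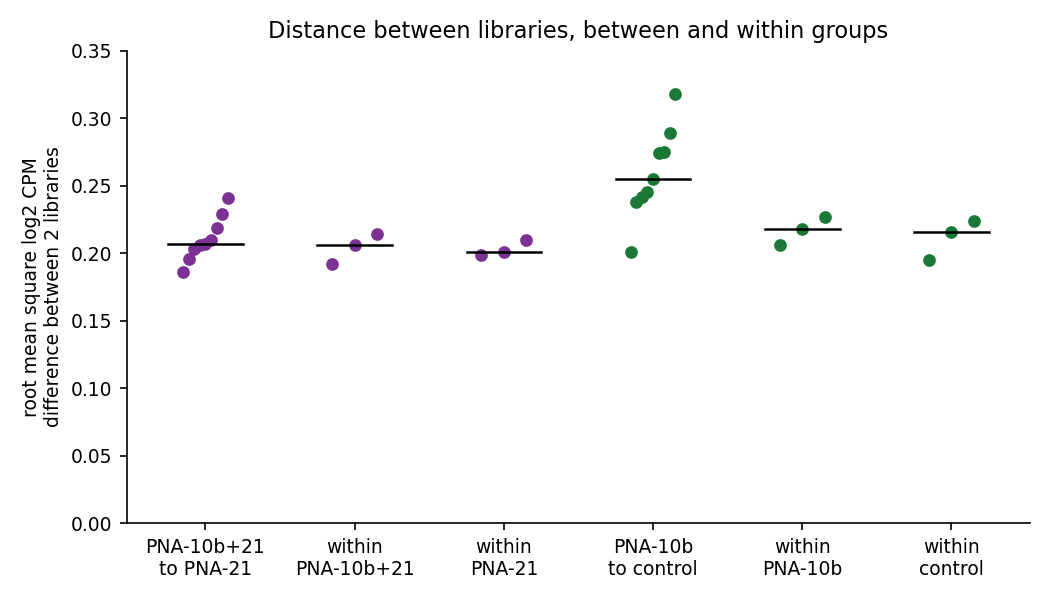
Root mean square log2 CPM difference between 2 libraries over 12597 genes (vertical axis), each point a pair of libraries and each bar a median. The PNA-10b+21 to PNA-21 pairs have a median of 0.207, beside 0.206 within PNA-10b+21 and 0.201 within PNA-21, and the PNA-10b to control pairs have a median of 0.255.

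How large a change could have gone unseen was read from each gene's 95% interval. Over all genes the median absolute log2 change was 0.08 (1.06-fold), and 95% of genes differed by less than 1.35-fold. For 11829 genes (75.3%) the whole interval lay within 1.5-fold either way and for 14229 (90.5%) within 2-fold. Equivalence tests, 2 one-sided tests per gene with Benjamini-Hochberg adjustment, passed for 12188 and 14708 genes at those bounds. The median gene was bounded at 1.21-fold.

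The bounds depended on the level of the gene, through the counts behind it. Of 1877 genes at 7 log2 CPM or more, 99.7% were held within 1.5-fold, as were 99.6% of 4635 genes between 5 and 7 and 98.5% of 3577 between 3 and 5. The share was 69.0% of 2508 genes between 1 and 3 log2 CPM, and 2.79% of 3118 genes under 1. Of the 1486 genes not held within 2-fold, 1415 were under 1 log2 CPM, where a 2-fold change was often not detectable at this depth.

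**Figure D2:**
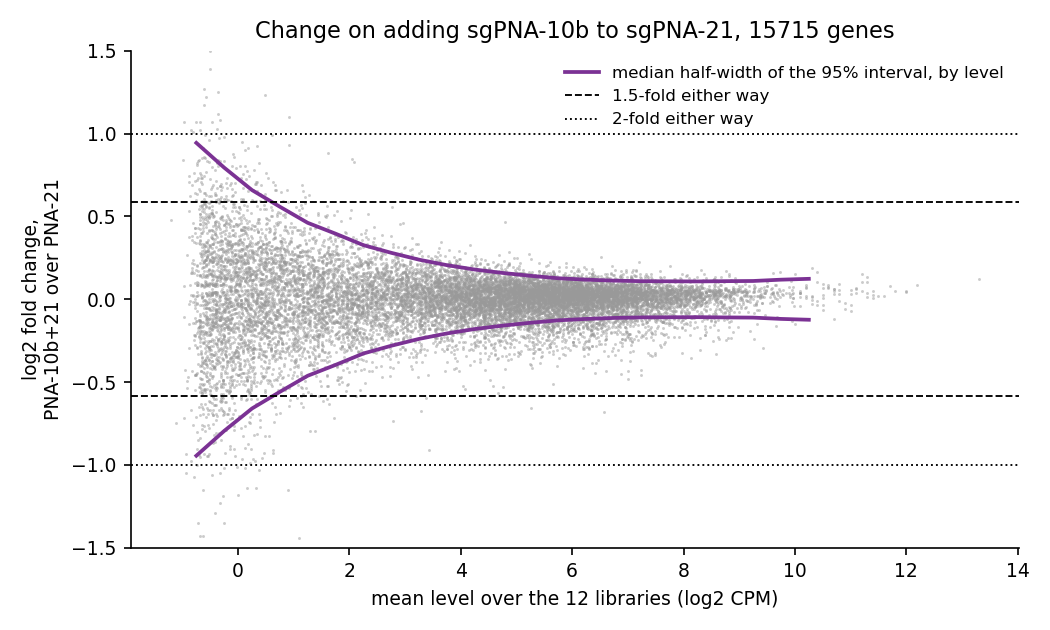
Log2 fold change of PNA-10b+21 over PNA-21 (vertical axis) by mean level (horizontal axis, log2 CPM) for 15715 genes, of which 20 lie beyond the vertical limits. The purple lines are the median half-width of the 95% interval by level, and the dashed and dotted lines mark 1.5-fold and 2-fold.

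Reported miR-10b targets were taken first, as the genes that sgPNA-10b would be made to raise. Of 20 tested, 0 passed in either direction, which was fixed in advance since no gene tested passed. At an unadjusted p under 0.05, 4 were lower and 0 higher, beside 5.90% and 2.72% of all genes, and their median log2 change was -0.05, beside 0.01 over all genes. All 20 were held within 2-fold and 16 within 1.5-fold, beside 90.5% and 75.3% of all genes. HOXD10, a homeobox transcription factor and the textbook miR-10b target, had 0.917, 0.708 and 1.00 CPM in PNA-10b+21 and 0.708, 0.683 and 0.845 CPM in PNA-21. These overlapping values gave a log2 change of 0.23 ± 0.31 SE, and at this low level a rise of up to 1.83-fold lay inside the interval.

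The other reported miR-10b targets stood at higher levels and were bounded more tightly. NF1, an inhibitor of RAS, had 104, 109 and 114 CPM in PNA-10b+21, against 103, 111 and 105 CPM in PNA-21, a log2 change of 0.03 (95% interval -0.08 to 0.14). TIAM1 had 39.5, 37.7 and 41.8 CPM in PNA-10b+21 and 40.8, 40.0 and 35.1 CPM in PNA-21 (log2 change 0.04, interval -0.10 to 0.18). BDNF, whose site is shown above, had 49.4, 50.1 and 51.4 CPM in PNA-10b+21 and 56.1, 53.5 and 49.0 CPM in PNA-21 (log2 change -0.07, interval -0.19 to 0.05). The groups overlapped for each of these 3 genes. KLF4, a transcription factor, had a log2 change of -0.18 ± 0.09, and CDKN1A, a cell cycle inhibitor, one of 0.04 ± 0.05.

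The 2 groups did not overlap for 6 of the 20 reported miR-10b targets, among them SRSF1, MBNL1, MBNL3, BCL2L11 and TRA2B, and in each of the 6 PNA-10b+21 was lower, as it was for 8.16% of all genes. SRSF1 (ENSG00000136450, chromosome 17 from 58003360 to 58007346) had 73.3, 58.5 and 76.6 CPM in PNA-10b+21, against 85.4, 103 and 90.0 CPM in PNA-21. Its log2 change was -0.41 ± 0.12 (edgeR adjusted p = 0.28). In PNA-10b against control its log2 change was 0.33 (adjusted p = 0.133), and the interaction passed at -0.74 (adjusted p = 0.0284). MBNL1, a splicing regulator, had a log2 change of -0.16 (edgeR adjusted p = 0.449) and its paralog MBNL2 one of -0.21 (edgeR adjusted p = 0.372).

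Of 30 reported miR-21 targets tested, 0 passed, which is likewise fixed by the 0 over all genes. At an unadjusted p under 0.05, 5 were lower and 0 higher, beside 5.90% and 2.72% of all genes, and the median log2 change was 0.00. Here sgPNA-21 was present in both arms. PDCD4 had 29.9, 28.9 and 31.7 CPM in PNA-10b+21 and 31.2, 29.6 and 32.5 CPM in PNA-21, a log2 change of -0.04 (interval -0.20 to 0.11). RECK and TIMP3, inhibitors of matrix proteases, had log2 changes of 0.00 (interval -0.13 to 0.14) and 0.09 (-0.07 to 0.24). MARCKS, a membrane-bound substrate of protein kinase C, had 99.5, 87.4 and 129 CPM in PNA-10b+21 and 135, 174 and 134 CPM in PNA-21 without overlap (log2 change -0.48 ± 0.16, edgeR adjusted p = 0.339). DAXX, at under 1.5 CPM in each of these 6 libraries, was the one member not held within 2-fold.

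Genes with a seed site were also set beside genes without one, over 12234 tested genes with an annotated 3′ UTR. A miR-10 site was found in 1834 of them (15%), whose median log2 change was 0.01, as was that of the other 10400, a difference of -0.00542. After a regression on GC content and length the difference was 0.00498. Deviations per library, sites minus no sites, were -0.0140, -0.0240 and 0.0062 log2 in PNA-10b+21 and -0.0074, 0.0036 and -0.0066 in PNA-21. A miR-21 site was found in 1269 genes (10.4%), whose median was -0.03 beside 0.01 without a site, a difference of -0.0395. Their UTRs had a median GC content of 37.8% with a site and 43.0% without, and the difference was -0.00327 after the regression. For 8mers only (364 genes) the miR-21 difference was -0.0596, and -0.0213 after the regression. No gene with a site of either family passed the adjusted threshold, since no gene tested did. At an unadjusted p under 0.05, 49 genes with a miR-10 site were higher (2.67%) and 141 lower (7.69%), beside 6.82% lower without one. Of 305 genes with a miR-10 8mer 12 were higher (3.93%) and 32 lower (10.5%), beside 6.86% lower without one. With a miR-21 site 31 were higher (2.44%) and 173 lower (13.6%), beside 6.17% lower without one. With a miR-21 8mer 6 were higher (1.65%) and 67 lower (18.4%), beside 6.6% lower without one. What part GC content has in these shares was not tested.

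Genes that sgPNA-10b moved in the absence of sgPNA-21 were then followed into the addition. The 2 comparisons share no library. The 432 genes higher in PNA-10b had a median log2 change of 0.00 on addition to sgPNA-21, beside 0.30 without it. The 587 lower genes had a median of 0.02 on addition, beside -0.35 without it. In PNA-21 against control the higher genes had a median of 0.38 and the lower genes one of -0.43. In PNA-10b+21 against control these medians were 0.36 and -0.40. Both of those comparisons share the control libraries with the one that chose the genes. The 95% interval on addition left out the size seen alone for 414 of the higher genes (95.8%) and 559 of the lower genes (95.2%). Since these genes were picked for a large change alone, that size is likely overstated and part of the gap is fixed by the choice. The interaction passed for 143 of the higher and 218 of the lower genes, each in the direction opposed to the change alone. The interaction subtracts the same change alone that chose these genes, so its direction and these numbers are also largely fixed by the choice and are given as a description, as are the interactions of the largest rises and falls below.

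**Figure D3:**
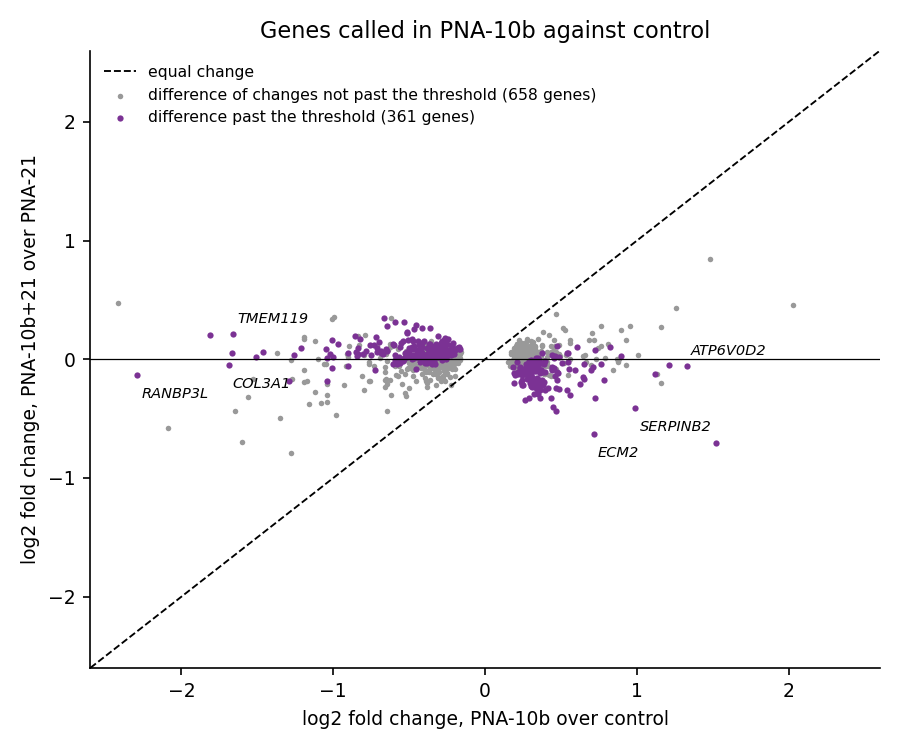
Log2 fold change of PNA-10b+21 over PNA-21 (vertical axis) against that of PNA-10b over control (horizontal axis) for the 1019 genes called in PNA-10b against control, 3 of them beyond the axes. Purple marks the 361 genes whose 2 changes differed past the interaction threshold. The points lie along the horizontal line at 0 and not along the dashed line of equal change.

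The largest falls in PNA-10b against control show this in single genes. COL3A1, a fibrillar collagen chain (ENSG00000168542, chromosome 2 from 188974320 to 189012746 in hg38), had 17.8, 28.3 and 32.6 CPM in PNA-10b+21 and 30.9, 22.6 and 27.1 CPM in PNA-21. Those 6 libraries overlapped, with a log2 change of -0.05 (interval -0.43 to 0.33). It had 26.9, 20.1 and 27.1 CPM in PNA-10b and 73.3, 64.6 and 101 CPM in control, with no overlap. The log2 change alone was -1.69 and the interaction 1.64 (adjusted p = 0.00399).

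ITGA11, a collagen receptor subunit, had 13.4, 14.8 and 20.2 CPM in PNA-10b+21 and 19.5, 15.3 and 13.1 CPM in PNA-21, and the groups overlapped (log2 change 0.02, interval -0.30 to 0.33). It stood at 12.2, 12.1 and 13.2 CPM in PNA-10b, all below the 37.5, 29.2 and 40.9 CPM in control. CEMIP, a hyaluronan-binding protein, had 23.4, 29.9 and 30.5 CPM in PNA-10b+21 and 29.5, 19.5 and 30.8 CPM in PNA-21, again overlapping (log2 change 0.05, interval -0.38 to 0.48). Its interaction was 1.72 (adjusted p = 0.00625). FOSB, an immediate early transcription factor, had 15.7, 16.0 and 17.9 CPM in PNA-10b+21 and 19.7, 13.1 and 14.5 CPM in PNA-21 (log2 change 0.06, interval -0.31 to 0.44). FOSB had a log2 change of -1.46 in PNA-10b against control, and its interaction was 1.52 (adjusted p = 0.00625). NR4A1, another immediate early gene, had a log2 change of 0.04 ± 0.19 on addition and TMEM119, a membrane protein best known from microglia, one of 0.21 ± 0.21, with interactions of 1.30 and 1.88. TMEM119 is 1 of the 8 myeloid and lymphoid markers, whose sum was 19.7 to 21.0 CPM in PNA-10b and 31.8 to 43.6 CPM in control. What part those markers have in its change alone was not tested.

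Among the 10 largest falls the values on addition ran from -0.31 for ANGPT2, a ligand of the vessel receptor TIE2, to 0.21 for TMEM119. The interaction passed for 9 of these 10 genes and missed for ANGPT2 (edgeR adjusted p = 0.054). RANBP3L, at 1.55, 1.56 and 1.82 CPM in PNA-10b+21 and 2.07, 0.751 and 2.43 CPM in PNA-21, was bounded only at 1.97-fold.

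Among the largest rises in PNA-10b against control, fewer passed the interaction. ATP6V0D2, which belongs to the vacuolar proton pump, had 7.39, 5.95 and 6.72 CPM in PNA-10b+21 and 5.55, 8.60 and 6.87 CPM in PNA-21, overlapping (log2 change -0.05, interval -0.42 to 0.31). It had 4.49, 6.90 and 5.56 CPM in PNA-10b and 2.28, 2.89 and 1.45 CPM in control, and the interaction was -1.38 (adjusted p = 0.0135). SERPINB2, an inhibitor of plasminogen activators, had 7.33, 6.51 and 4.52 CPM in PNA-10b+21 and 8.03, 10.7 and 6.07 CPM in PNA-21 (log2 change -0.41 ± 0.18, edgeR adjusted p = 0.497), and the interaction was -1.40 (adjusted p = 0.0137). Of the 10 largest rises the interaction passed for 4, the other 2 being the noncoding RNAs LINC02392 (-1.25) and AC078850.1 (-1.26). EIF3CL and METRNL, also among them, had uneven libraries. EIF3CL, which has a near-identical copy that can take its reads, had 102, 1.77 and 20.8 CPM in PNA-10b. What part that copy has in these values was not tested. METRNL had 9.17, 2.2 and 2.13 CPM in PNA-10b+21.

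**Figure D4:**
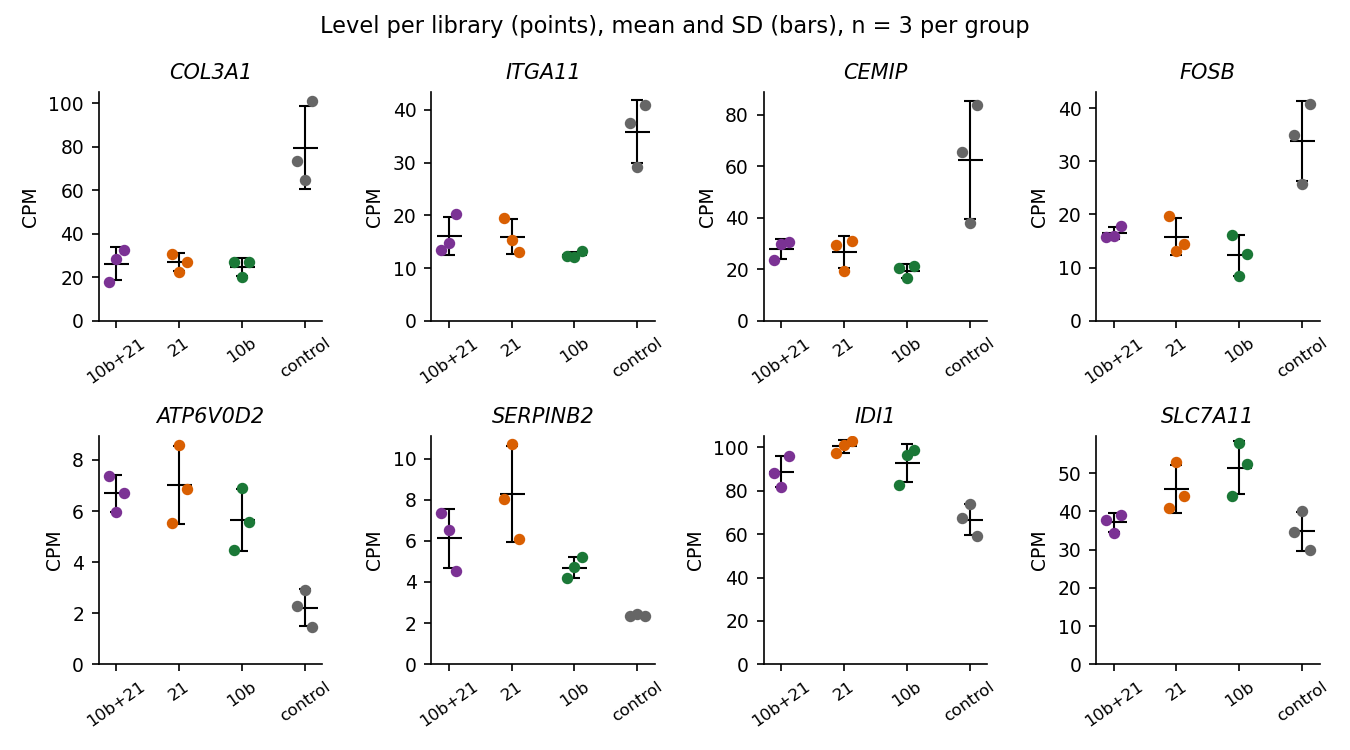
CPM of 8 genes in each library (points), with the mean and SD of the 3 libraries per group (bars), groups named on the horizontal axis. For COL3A1, ITGA11, CEMIP, FOSB and ATP6V0D2 the PNA-10b+21 and PNA-21 points overlap and lie apart from control; for IDI1 and SLC7A11 the PNA-10b+21 points lie below those of PNA-21.

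By pathway, 31 of the 32 list medians on addition lay within 0.1 log2 of 0. In each list 0 genes passed on addition, which the 0 over all genes fixes in advance. Of 25 cholesterol synthesis genes, the median log2 change was 0.03 on addition and 0.35 in PNA-10b against control. There 18 were higher and 0 lower, beside 2.75% and 3.74% of all genes. In PNA-21 against control this list had a median of 0.395, beside -0.01 over all genes. The interaction passed for 14 of the 25 in the lower direction, beside 1.64% of all genes. With 1 library left out it passed for 9 to 14, fewest without PNA-10b replicate 2 or PNA-10b+21 replicate 2. Here and in the lists below the interaction subtracts the change alone, and the lists were chosen with earlier results known. Its counts are therefore in part fixed by that choice and are given as a description. IDI1, an isomerase of the mevalonate pathway, had 88.2, 81.9 and 96.1 CPM in PNA-10b+21 and 97.4, 101 and 103 CPM in PNA-21, without overlap (log2 change -0.18 ± 0.07, edgeR adjusted p = 0.487, interaction -0.65). SC5D, which acts late in the same pathway, had 32.9, 29.8 and 34.5 CPM in PNA-10b+21 and 36.6, 38.0 and 38.8 CPM in PNA-21, also without overlap (log2 change -0.22 ± 0.07). LSS, lanosterol synthase, had 51.3, 24.8 and 24.7 CPM in PNA-10b+21 and 25.4, 25.7 and 22.9 CPM in PNA-21, and its log2 change of 0.47 (interval 0.07 to 0.87) rested on 1 library, being 0.01 without PNA-10b+21 replicate 1.

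Of 28 extracellular matrix genes the median was 0.05 on addition and -0.30 in PNA-10b against control. There 15 were lower and 0 higher, beside 3.74% and 2.75% of all genes. In PNA-21 against control the list median was -0.57. The interaction passed for 14, all in the higher direction, beside 1.48% of all genes. It passed for 4 without PNA-10b replicate 2 and 8 without control replicate 1. Without control replicate 3, PNA-21 replicate 2 or PNA-10b+21 replicate 3 it passed for 9. COL6A2, a chain of collagen VI, had a log2 change of 0.08 on addition (interval -0.03 to 0.18) and -0.19 in PNA-10b against control. The laminin chain LAMA4 had one of 0.13 (interval 0.01 to 0.25) and the fibrillin FBN2 one of 0.12 (interval 0.00 to 0.24). Of 24 matrix proteases and inhibitors the median was 0.02 on addition; ADAMTS5, which cleaves aggrecan, had a log2 change of -0.25 ± 0.09 there and an interaction of -0.66.

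Of 31 genes of the ATF4 response, a program of amino acid supply and stress, the median was -0.04 on addition and 0.25 in PNA-10b against control. There 14 were higher and 0 lower, beside 2.75% and 3.74% of all genes, and 6 were higher without PNA-10b replicate 2. In PNA-21 against control the list median was 0.13. The interaction passed for 11 in the lower direction, beside 1.64% of all genes. It passed for 3 without control replicate 1 or PNA-10b replicate 2. Without control replicate 3, PNA-21 replicate 2 or PNA-10b+21 replicate 2 it passed for 4. SLC7A11, the cystine importer, had 37.8, 34.4 and 39.1 CPM in PNA-10b+21 and 40.8, 52.8 and 44.0 CPM in PNA-21, without overlap (log2 change -0.30 ± 0.10, edgeR adjusted p = 0.361). It had 44.1, 57.9 and 52.4 CPM in PNA-10b and 34.7, 40.0 and 29.8 CPM in control, and its interaction was -0.86 (adjusted p = 0.00625). MTHFD2, of mitochondrial folate metabolism, had a log2 change of -0.13 ± 0.07 and NUPR1, a stress-induced regulator, one of -0.10 ± 0.06.

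Of 31 G2 and M phase genes the median was 0.05 on addition and 0.27 in PNA-10b against control. There 22 were higher, beside 2.75% of all genes. Without 1 library the 22 became 4 (PNA-10b replicate 2), 10 (control replicate 3) or 12 (control replicate 1). In PNA-21 against control the list median was 0.33. The interaction passed for 4 of the 31, all in the lower direction, beside 1.64% of all genes. Without 1 library it passed for 1 to 10, fewest without PNA-10b replicate 2 and most without control replicate 2. MKI67, the proliferation marker, had 518, 509 and 463 CPM in PNA-10b+21 and 468, 441 and 415 CPM in PNA-21, with 1 PNA-10b+21 library below the highest of PNA-21 (log2 change 0.17 ± 0.06, edgeR adjusted p = 0.415). MAD2L1, of the spindle checkpoint, had a log2 change of -0.17 ± 0.07, opposite in sign. Of 34 S phase genes the median was 0.06, and all 34 were held within 1.5-fold, beside 75.3% of all genes.

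Of 29 hypoxia and glycolysis genes the median was -0.06 on addition. All 29 were held within 1.5-fold, beside 75.3% of all genes. LOX, a collagen crosslinking enzyme, had 391, 427 and 532 CPM in PNA-10b+21 and 511, 651 and 495 CPM in PNA-21 (log2 change -0.30 ± 0.10, edgeR adjusted p = 0.328), with overlap. BNIP3, of mitophagy, had a log2 change of -0.23 ± 0.10 and CA9, a carbonic anhydrase, one of -0.14 ± 0.08. In PNA-21 against control this list had a median of -0.51.

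Of 15 interleukins and chemokines the median was -0.11 on addition, the farthest from 0 of the 32 lists, and 0.34 in PNA-10b against control. The list had a median of 0.41 in PNA-21 against control. IL6 had 14.6, 16.0 and 19.0 CPM in PNA-10b+21 and 20.8, 24.6 and 18.3 CPM in PNA-21 (log2 change -0.35 ± 0.11, edgeR adjusted p = 0.285), with the highest PNA-10b+21 library above the lowest of PNA-21. CXCL2, a neutrophil chemokine, had a log2 change of -0.29 ± 0.09 and IL1A one of -0.50 ± 0.16, each without overlap. IL1A was at 4.76, 3.47 and 3.52 CPM in PNA-10b+21 and 5.19, 6.62 and 5.07 CPM in PNA-21, and its interaction was -1.04 (adjusted p = 0.0203). The list median ran from -0.19 to -0.06 over the fits without 1 library.

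The remaining lists gave medians between -0.06 and 0.06. Of 18 HOX genes 8 were held within 1.5-fold and 13 within 2-fold, beside 75.3% and 90.5% of all genes. TGFBR1, a TGF-beta receptor, had 96.8, 98.6 and 112 CPM in PNA-10b+21 and 118, 141 and 115 CPM in PNA-21, without overlap (log2 change -0.28 ± 0.07, edgeR adjusted p = 0.266). SPRED1, an inhibitor of RAS signalling, had a log2 change of -0.24 ± 0.07 and the growth factor FGF2 one of -0.29 ± 0.10. Of 14 microRNA processing genes 14 were held within 1.5-fold, with TNRC6B, a partner of Argonaute, at a log2 change of 0.14 ± 0.06 and DGCR8, a partner of DROSHA, at 0.16 ± 0.07. All of 23 endocytosis genes and 26 lysosome genes, routes by which particles enter and are broken down, were held within 1.5-fold. Over all genes 75.3% were, and 98.5% of those between 3 and 5 log2 CPM, so these list counts also reflect level. Of 39 cytosolic ribosomal protein genes 37 were held within 1.5-fold. RPL7A (0.21 mean log2 CPM) and RPS9 (0.46) were not, at levels far under the 10.2 of RPL4. Both have near-identical copies that can take their reads, and what part this has in their levels was not tested.

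**Figure D5:**
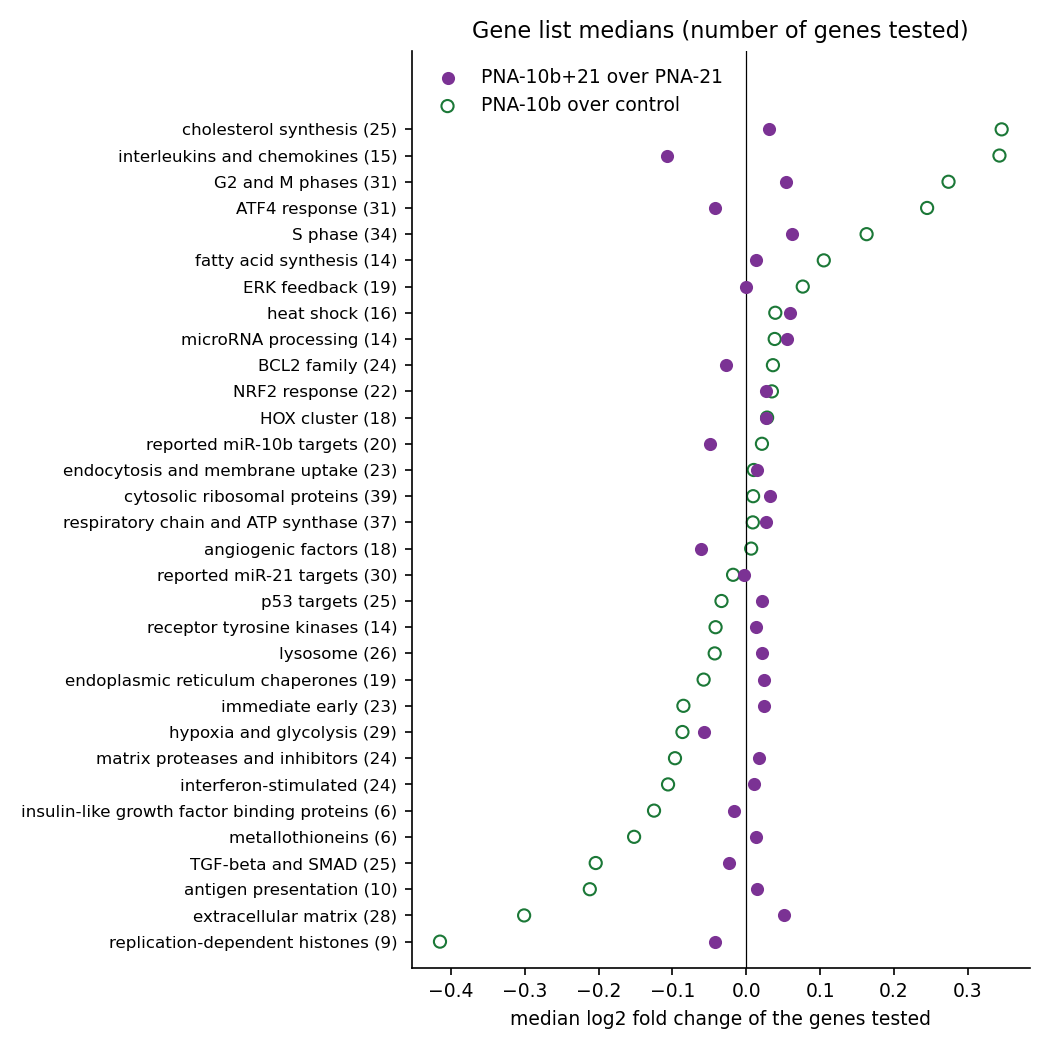
Median log2 fold change (horizontal axis) of the tested genes of 32 lists, filled for PNA-10b+21 over PNA-21 and open for PNA-10b over control, with the number of genes tested in brackets. The filled points lie between -0.11 and 0.06; the open ones reach 0.35 for cholesterol synthesis and -0.42 for replication-dependent histones.

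The genes of smallest p are described because 927 lower genes against 427 higher ones is an uneven split, and they were chosen after their values were seen. AHR, the aryl hydrocarbon receptor (ENSG00000106546, chromosome 7 from 16916359 to 17346152), had the smallest p (0.000204, edgeR adjusted p = 0.266). It had 59.1, 63.4 and 73.1 CPM in PNA-10b+21, all under the 87.3, 90.5 and 78.0 CPM in PNA-21, a log2 change of -0.39 ± 0.09. CYCS, cytochrome c, had 169, 152 and 171 CPM in PNA-10b+21 and 191, 227 and 205 CPM in PNA-21, without overlap (log2 change -0.34 ± 0.08). FMR1, an RNA-binding protein, had a log2 change of -0.26 ± 0.06, PPP1CB, a phosphatase subunit, one of -0.45 ± 0.11, and SCAMP1, a membrane trafficking protein, one of -0.44 ± 0.10. Among higher genes B3GNTL1, a glycosyltransferase-like gene, had 4.99, 5.17 and 6.66 CPM in PNA-10b+21 and 2.83, 2.73 and 3.8 CPM in PNA-21 (log2 change 0.83 ± 0.21), and SYNE2, a nuclear envelope protein, a log2 change of 0.22 ± 0.06. EEF1D, with a log2 change of 4.27, rested on 1 library, at 0.573, 23.0 and 0.628 CPM in PNA-10b+21 and 0.413, 0.546 and 0.264 CPM in PNA-21, and was 0.58 without PNA-10b+21 replicate 2.

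Transcript GC content moved with the change on addition. Across 15565 genes Spearman's rho between GC content and log2 change was 0.298, as a description over genes, which are not independent. The same rho was -0.174 in PNA-10b against control and 0.299 for the interaction. The 3116 genes of lowest GC (up to 40.8%) had a median log2 change of -0.08 and the 3113 of highest GC (from 57%) one of 0.04. The lower genes at an unadjusted p under 0.05 had a median GC of 38.7%, the higher ones 51.6% and the rest 48.2%. By library, the low-GC minus high-GC deviation was -0.106, -0.0525 and -0.0299 log2 in PNA-10b+21, all below the -0.00399, 0.081 and 0.0939 in PNA-21. With GC content and length fitted per library, 466 genes were higher and 571 lower at an unadjusted p under 0.05 and 0 passed the adjusted threshold, while AHR had a log2 change of -0.31 and CYCS one of -0.30. In that fit 9 of the named genes changed the sign of their log2 change on addition. The interaction then passed for 125 genes in the higher and 133 in the lower direction, against 233 and 258 without these terms. What part GC content has in the other values was not tested.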

How the data were processed

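mRNA was sequenced from 12 libraries of U87 cells (TruSeq Stranded mRNA, per the labels' protocols). The authors deposited 1 table of raw counts for 35741 Ensembl genes. HISAT2 2.1.0, SAMtools 1.7, HTSeq 0.11.0 and hg38 appear per the submitters' processing notes. How strand was set when counting, and which annotation release, is not given in the sources used here, and antisense and overlapping genes are less certain. All 12 columns matched a sample by title, and 34564 genes matched GENCODE 29.

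From the deposited counts, genes were kept by filterByExpr (edgeR 4.0.16, R 4.3.3, minimum count 10), which left 15715 genes with 99.84% of counts, and scaled by TMM. A single quasi-likelihood model with 4 group means took all 12 libraries, and p-values were adjusted over all genes tested. CPM values use TMM-scaled library sizes. Standard errors and 95% intervals are Wald values from that fit, on 20.7 degrees of freedom at most genes. Counting error limits low genes most. The script was tested on simulated data.

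Alternatives were DESeq2 1.42.0 size factors and test, limma-voom (limma 3.58.1), the likelihood ratio test, other count filters, each library left out, the replicate number as a block, the 6 libraries alone, and GC and length offsets, the last added after seeing the data.

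The comparison, the gene lists and the tests were chosen with earlier results of these data known. Named genes are the 10 largest rises and falls in PNA-10b against control with no overlap and at least 1 log2 CPM, reported targets, up to 4 list members by smallest p, and up to 5 interaction genes each way; others are said to be chosen after their values were seen. No gene passed on addition, so that part of the rule named none. Of the reported targets, 1 is not reported here by name.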

Additional observations from a re-analysis of the deposited data

Results flagged for a closer look

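The change on adding sgPNA-10b differed with and without sgPNA-21, by the interaction test of edgeR's quasi-likelihood fit, for 233 genes in the higher and 258 in the lower direction. Among the genes named for a large change in PNA-10b against control, for a large interaction or as a reported target, 15 passed. Those in the higher direction, given as log2 of the difference of the 2 changes, were RANBP3L (2.16), TMEM119 (1.88), CEMIP (1.72), COL3A1 (1.64), ITGA11 (1.53), FOSB (1.52), NR4A1 (1.30), SLITRK6 (1.30) and CYTIP (1.11), 9 genes that were lower in PNA-10b than in control. Those in the lower direction were SERPINB2 (-1.40), ATP6V0D2 (-1.38), ECM2 (-1.35), AC078850.1 (-1.26), LINC02392 (-1.25) and SRSF1 (-0.74). COL3A1, CEMIP, FOSB, ITGA11 and TMEM119 passed under each of 19 other settings that gave them a value, whereas RANBP3L passed under 7 of 18, CYTIP under 7 of 19, AC078850.1 under 9 of 19 and LINC02392 under 10 of 19. Another 19 passed that were named as the members of smallest p in their list on addition, whatever the size of that p. Of these IGFBP4 (0.81), EPHA2 (0.59) and COL6A2 (0.27) were in the higher direction, and IL1A (-1.04), SLC7A11 (-0.86), ADAMTS5 (-0.66), IDI1 (-0.65), CXCL2 (-0.63), CYCS (-0.60), SC5D (-0.58), STARD4 (-0.58), FGF2 (-0.56), MAD2L1 (-0.53), DUSP6 (-0.46), RFC3 (-0.46), ECT2 (-0.40), MTHFD2 (-0.38), NUPR1 (-0.35) and ACSL3 (-0.26) in the lower. Among the genes of smallest p on addition, chosen after their values were seen, 13 more passed: B3GNTL1 (1.11), TFDP2 (0.32), EVC (0.30) and GOLGA3 (0.26) in the higher direction, and LYPLA1 (-0.62), MOB4 (-0.61), UMAD1 (-0.61), PPP1CB (-0.58), SCAMP1 (-0.57), BROX (-0.56), TWF1 (-0.37), MDFIC (-0.36) and STX7 (-0.32) in the lower. All of these genes were chosen by one of the 2 changes that the interaction compares, or by the interaction itself, except SRSF1, so the number that passed is in part fixed by the choice. Control cells had no nanoparticles, so an effect of the nanoparticles cannot be told apart from that of sgPNA-10b in the comparison without sgPNA-21.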

How the results depend on the processing

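On addition of sgPNA-10b, 0 higher and 0 lower genes passed in the edgeR fit of the 12 filtered libraries and in each alternative but 2. With no filter on low counts there were 32 higher and 300 lower genes. That fit estimated an infinite prior degrees of freedom, against 12.7 with the filter, so all genes shared 1 trend of spread. Of its 332 calls, only 20 were genes that the filter removed. With only the 6 libraries there were 1 higher and 47 lower (smallest adjusted p = 0.024, median -0.34 for the lower genes, median transcript GC 37.5%), and the same 48 genes were called with no filter. With GC and length offsets on the 6 libraries both counts were 0. Leaving out each of the 12 libraries gave smallest adjusted p from 0.0904 to 0.925. Whether the replicate numbers pair the samples was not settled. Deviations of same-numbered PNA-10b+21 and PNA-21 libraries correlated at 0.101, -0.0737 and 0.0828, and not every library correlated best with its own number. For PNA-21 and control the same-numbered values were 0.0964, 0.24 and 0.0473, each the highest for its PNA-21 library. With the replicate number as a block 0 genes passed on addition (smallest edgeR adjusted p = 0.0502). In PNA-10b against control 562 were then higher and 709 lower. The counts held within 1.5-fold or 2-fold stayed within 1.5 times of the reported counts under every alternative that gave intervals. The likelihood ratio test gave none.

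In PNA-10b against control, 690 genes were higher with no filter, and leaving out 1 library gave 98 to 576 higher and 208 to 676 lower genes, fewest without PNA-10b replicate 2, control replicate 3 or control replicate 1. The interaction gave 350 higher and 724 lower genes with no filter, 125 and 133 with GC and length offsets, and 44 to 451 higher and 48 to 577 lower with 1 library left out; the lowest counts came without PNA-10b replicate 2 and the highest without control replicate 2. The median on addition of the genes higher in PNA-10b ran from -0.0516 to 0.0177 over those fits. The difference between genes with and without a miR-10 site was -0.0199 for 8mers only (-0.00141 after the regression). For miR-21 it was -0.0596 for 8mers only (-0.0213 after the regression), -0.0126 with GC and length offsets and -0.0137 with these on the 6 libraries. The cause of these moves was not tested. For single named genes over all alternatives, 58 values on addition passed that had not, and of the interaction values 53 no longer passed and 16 newly passed. No call reversed its sign.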

Other observations

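ECM2, a matrix protein gene named by the interaction rule, had 2.06, 1.77 and 2.26 CPM in PNA-10b+21 and 2.66, 3.35 and 3.49 CPM in PNA-21, without overlap (log2 change -0.63 ± 0.20, edgeR adjusted p = 0.304). It had 3.70, 4.24 and 4.31 CPM in PNA-10b and 2.15, 3.06 and 2.18 CPM in control. IGFBP4, an insulin-like growth factor binding protein, had 46.7 ± 0.578 CPM in PNA-10b+21 and 43.6 ± 7.12 in PNA-21 (SD, n = 3 each), beside 32.5 ± 3.17 in PNA-10b and 53.4 ± 6.77 in control. EPHA2, an ephrin receptor, had 43.5 ± 3.00 CPM in PNA-10b+21 and 40.5 ± 3.43 in PNA-21 (SD, n = 3 each), beside 29.8 ± 1.45 in PNA-10b and 41.6 ± 2.11 in control. For IGFBP4 and EPHA2 the PNA-10b libraries alone lay below those of the other 3 groups by mean, with interactions of 0.81 (adjusted p = 0.00687) and 0.59 (adjusted p = 0.0063) in edgeR.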
